A study of Sus scrofa with 6 samples.

Results

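The expression of 6 genes of autophagy, the lysosome and phosphoinositide turnover was followed in the left atria of pigs with mitral regurgitation. The genes were INPP5F, WIPI1, RUBCNL, STBD1, SCARB2 and CTSD, and every probe set that the platform annotation assigns to a single one of these symbols was taken. This gave 10 probe sets for 6 of the 6765 genes with such a probe set: INPP5F, WIPI1, STBD1 and SCARB2 had 2 each, RUBCNL and CTSD had 1 each. All 10 passed the filter on low intensity, which kept 14400 of 23999 probe sets. The genes had been picked because their values differed between these same arrays, so their differences are given as a description, without a test.

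RNA came from 6 male Lanyu miniature pigs aged 18 months, each on its own porcine expression array, in 3 groups with n = 2. Normal controls (NC) have no operation recorded for them. In the mitral regurgitation group (MR), the posterior leaflet of the mitral valve had been given a 2.8 mm hole in its middle scallop, and the animals were killed 12 months later without valsartan. In the valsartan group (MRV), animals with the same lesion received valsartan, which blocks angiotensin II at its type I receptor, in a dose of 3.43 mg/kg/day from a week before surgery onward, and were killed at the same time after it. MR and MRV differ from NC by both the lesion and the operation, and these cannot be told apart. The comparison of MR with NC addresses what regurgitation alters in the atrium, and that of MRV with MR what valsartan alters in it. The arrays are named by group and replicate number, as MR1 and MR2.

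Autophagy encloses cytoplasm in a double membrane, the autophagosome, and delivers it to the lysosome for digestion. Its start and its last steps depend on phosphoinositides, membrane lipids whose head group is phosphorylated by kinases and dephosphorylated by phosphatases. Heart muscle cells divide rarely and rely on this route to remove worn mitochondria and protein aggregates, and they also digest part of their glycogen in lysosomes. No sequence of these genes or probes was used here.

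The array medians lay between 90.2 and 93.4 intensity units. Of the 6 atrial muscle markers listed for the tissue check, 3 had a tested probe set (NPPA, MYL4 and SLN), and their summed intensity was 48903 to 50739 in NC, 45774 to 50944.5 in MR and 49603 to 50749 in MRV. NPPA and MYL4 made up most of each sum, while SLN read 5369 in MR1 and 8530 to 10033 on the other arrays. The summed ventricular markers MYL2, MYL3 and HEY2 (3 of 4 tested) were 8874 to 10454 in NC, 12734 to 21364.5 in MR and 8702.5 to 9369 in MRV. The ratio between the 3′ and 5′ actin control probe sets, a measure of RNA degradation, was 1.61 and 1.91 in the NC arrays, 1.44 and 1.70 in the MR arrays, and 2.30 and 1.87 in the MRV arrays. It was higher in both MRV arrays than in both MR arrays. The same ratio for GAPDH did not separate them. It was 1.57 and 1.59 in NC pigs, 1.53 and 1.57 in MR pigs, and 1.53 and 1.55 in MRV pigs. The 28S ribosomal RNA signal was 117 and 468 in NC pigs, 187 and 280 in MR pigs, and 341 and 559 in MRV pigs. Both MRV arrays were above both MR arrays in this signal, and the NC arrays spanned a wide range. Across all 14400 probe sets limma called 1 in MR minus NC (ASNS) and 0 in MRV minus MR and in MRV minus NC, while 579, 1048 and 762 had an unadjusted p under 0.05. None of the 10 probe sets of the 6 genes was among those called.

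INPP5F, by both probe sets, and WIPI1, by the brighter of its 2, were highest in both MR arrays and lower in NC and MRV. INPP5F read 1.60 times as high in MR as in NC by its brighter probe set, and WIPI1 1.47 times, while in MRV they read 0.551 and 0.647 times the MR level. STBD1, RUBCNL and the brighter SCARB2 probe set had overlapping values in NC and MR and separated in MRV, whereas the second probe sets of WIPI1 and SCARB2 overlapped in all groups. STBD1 read 0.535 times the MR level in MRV, RUBCNL 2.07 times and SCARB2 1.71 times by its brighter probe set. CTSD was highest in MR with the widest spread among the animals relative to its differences.

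**Figure D1:**
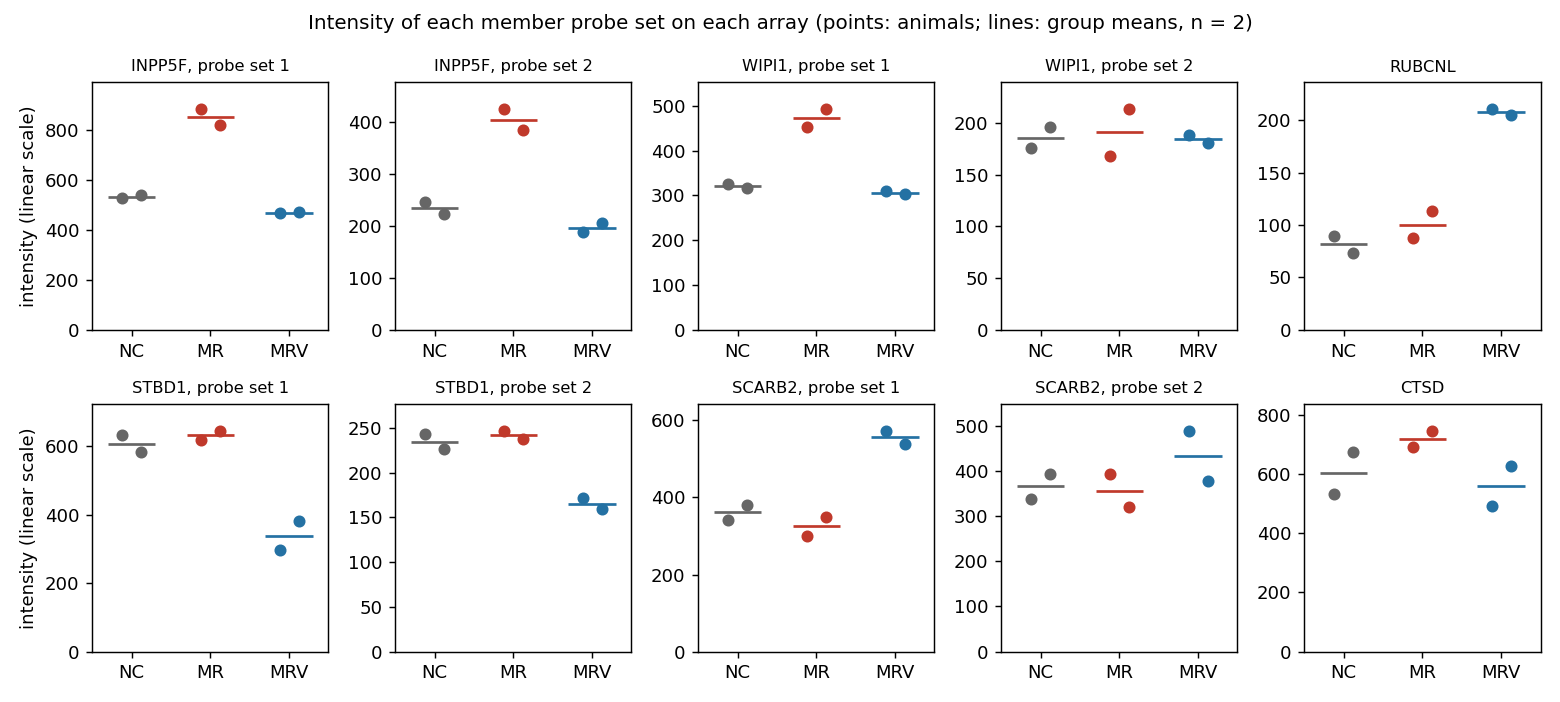
Intensity on a linear scale (vertical axes, each starting at 0) of the 10 probe sets of the 6 genes in NC, MR and MRV. Each point is the array of 1 animal and each line the mean of 2 arrays. INPP5F and the first WIPI1 probe set are highest in MR, while STBD1 is lowest and RUBCNL highest in MRV.

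INPP5F encodes SAC2, a phosphatase that removes the 4-phosphate from phosphatidylinositol 4-phosphate on endosomal membranes, and the gene is known in mice as a brake on cardiac hypertrophy. Its brighter probe set (Ssc.17070.1.A1_s_at) read 526 and 539.6 in NC pigs, 884 and 820.5 in MR pigs, and 468 and 470.1 in MRV pigs. The groups did not overlap: MR was above NC and NC was above MRV. The log2 difference was 0.66 (SE 0.10) in MR minus NC, -0.84 (SE 0.10) in MRV minus MR and -0.18 (SE 0.10) in MRV minus NC. These are limma differences of log2(intensity + 16) with moderated standard errors, a scale that understates the change of dim probe sets.

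The dimmer INPP5F probe set (Ssc.8360.1.A1_at) read 247 and 222.5 in the NC arrays, 426 and 384 in the MR arrays, and 188 and 206 in the MRV arrays. It gave the same order without overlap, with log2 differences of 0.75 (SE 0.12), -0.98 (SE 0.12) and -0.24 (SE 0.12) in the same sequence of comparisons. The 2 INPP5F probe sets correlated at r = 0.989 over the 6 arrays. The first carries the suffix _s_at, which marks probes that can match more than 1 transcript. In whole atrial tissue, a higher level can come from more cells that express a gene or from more RNA per cell, and these cannot be told apart.

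Of the ventricular markers, MYL2 and MYL3 were also higher in MR and HEY2 overlapped, with MYL2 at 203 and 325 in NC pigs, 10693 and 2318 in MR pigs, and 151.5 and 954 in MRV pigs. Without MR1, the array with the highest MYL2, the brighter INPP5F probe set differed by 0.61 in MR minus NC and by -0.79 in MRV minus MR. Adjusted for the actin ratio, these differences were 0.65 and -0.80. MR2 also read MYL2 above both NC arrays, so leaving out MR1 does not remove the marker difference. The part of ventricular muscle in the INPP5F values was not tested. The Schwann cell markers SOX10 and S100B (2 of 4 tested) were likewise higher in MR in sum, though SOX10 overlapped between MR and MRV. The sums were 675 to 686.5 in MR against 549 to 591 in NC and 452 to 597 in MRV, and their part in the INPP5F values was not tested.

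WIPI1 is a propeller-shaped protein that binds phosphatidylinositol 3-phosphate on the forming autophagosome and marks the sites where it grows. Its brighter probe set (Ssc.2080.1.S1_at) read 325.5 and 316 in the NC arrays, 453 and 493 in the MR arrays, and 309.7 and 303 in the MRV arrays. Both MR arrays were above the other 4, and MRV was below NC by a margin small against the SE. The log2 difference was 0.54 (SE 0.10) in MR minus NC, -0.60 (SE 0.10) in MRV minus MR and -0.06 (SE 0.10) in MRV minus NC.

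The other WIPI1 probe set (Ssc.2080.2.S1_at) did not show this order. It read 175.5 and 196 in NC pigs, 168 and 214 in MR pigs, and 188 and 181 in MRV pigs, and all groups overlapped. Its log2 differences were 0.03 (SE 0.14), -0.04 (SE 0.14) and -0.01 (SE 0.14). The 2 probe sets correlated at r = 0.247 over the 6 arrays, and which of them follows the main WIPI1 transcript was not tested. With the mean of both, WIPI1 differed by 0.28 in MR minus NC and by -0.32 in MRV minus MR.

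RUBCNL encodes Pacer, a relative of Rubicon that joins the class III phosphatidylinositol 3-kinase complex and promotes the maturation of autophagosomes. Its probe set (Ssc.12872.1.A1_at) read 89.9 and 73.4 in the NC arrays, 87.3 and 113 in the MR arrays, and 211 and 205 in the MRV arrays. Both MRV arrays were above the other 4, and NC and MR overlapped. The log2 difference was 0.95 (SE 0.15) in MRV minus MR, 1.20 (SE 0.15) in MRV minus NC and 0.25 (SE 0.15) in MR minus NC. In linear terms MRV read 2.54 times the NC level.

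RUBCNL was the dimmest of the 6 genes, at the 58.7th percentile of mean intensity, so its log2 values move with the pseudocount: with 64 in place of 16, the difference of MRV and MR was 0.73. The difference of MR and NC was 0.09 without MR2 and 0.41 without MR1. B and T cell markers (5 of 8 had a probe set) had 0 members above the intensity filter, and LCP1, a leukocyte actin-bundling gene that lies close to RUBCNL, read 65.2 and 50.0 in the NC arrays, 61.5 and 55.2 in the MR arrays, and 67.4 and 75.1 in the MRV arrays. Both MRV arrays of LCP1 were above the other 4, by a narrow margin over NC1 and with values near the filter intensity of 61.4. Its log2 differences were 0.23 in MRV minus MR (limma adjusted p = 0.767) and 0.25 in MRV minus NC (limma adjusted p = 0.904). The summed macrophage markers (6 of 11 tested) were 676 to 1076 in NC, 572 to 934 in MR and 541 to 998.5 in MRV, and overlapped between all groups. The part of leukocytes in the RUBCNL values was not tested.

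STBD1, also called genethonin-1, binds glycogen and links it through GABARAPL1 to autophagosomes, and it is abundant in muscle. Its brighter probe set (Ssc.13948.1.S1_at) read 633 and 583 in NC pigs, 619.8 and 646 in MR pigs, and 297 and 381 in MRV pigs. Both MRV arrays were below the other 4, and NC and MR overlapped. The log2 difference was -0.88 (SE 0.14) in MRV minus MR, -0.82 (SE 0.14) in MRV minus NC and 0.06 (SE 0.14) in MR minus NC.

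The dimmer STBD1 probe set (Ssc.13948.2.A1_a_at) read 243 and 226 in the NC arrays, 247 and 237 in the MR arrays, and 172 and 159 in the MRV arrays. It had the same separation with smaller differences, -0.51 (SE 0.11) in MRV minus MR and -0.47 (SE 0.11) in MRV minus NC. The 2 probe sets correlated at r = 0.928 over the 6 arrays. The actin ratio was highest in MRV1, where the brighter probe set was lowest, while the dimmer one was lowest in MRV2. With that ratio as a covariate the brighter probe set differed by -0.65 in MRV minus MR, and without MRV1 by -0.71. Of the smooth muscle markers (3 of 4 tested), TAGLN and CNN1 were also lowest in MRV and ACTA2 overlapped between MR and MRV. Their sums were 3210 to 3608 in MRV against 3916 to 4983 in NC and 3766 to 4168 in MR, and their part in the STBD1 values was not tested.

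SCARB2 encodes LIMP-2, a protein of the lysosomal membrane that carries beta-glucocerebrosidase to the lysosome. Its brighter probe set (Ssc.810.1.S2_at) read 342 and 381 in NC pigs, 301 and 349.7 in MR pigs, and 574 and 539 in MRV pigs. Both MRV arrays were above the other 4, with NC and MR overlapping. The log2 difference was 0.75 (SE 0.12) in MRV minus MR, 0.60 (SE 0.12) in MRV minus NC and -0.14 (SE 0.12) in MR minus NC.

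The other SCARB2 probe set (Ssc.810.1.S1_at) read 338 and 394 in the NC arrays, 393 and 319 in the MR arrays, and 489 and 377 in the MRV arrays. The highest value was again in MRV, but MRV2 fell within the range of NC and MR. Its log2 differences were 0.27 (SE 0.18) in MRV minus MR and 0.23 (SE 0.18) in MRV minus NC, and it correlated with the brighter one at r = 0.614 over the 6 arrays. Adjusted for the actin ratio, the brighter probe set differed by 0.53 in MRV minus MR, and the mean of both probe sets differed by 0.51.

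CTSD encodes cathepsin D, the main aspartic protease of the lysosome. Its probe set (Ssc.28893.1.A1_at) read 533 and 675 in NC pigs, 689.6 and 746 in MR pigs, and 490.4 and 626 in MRV pigs. MR was above the other 4 arrays, by a narrow margin over NC2, and NC and MRV overlapped. The log2 difference was 0.25 (SE 0.17) in MR minus NC, -0.36 (SE 0.17) in MRV minus MR and -0.11 (SE 0.17) in MRV minus NC. Without NC1 the first was 0.08, and without MRV1 the second was -0.19. The macrophage markers, whose cells are rich in lysosomes (6 of 11 tested), had sums of 676 to 1076 in NC, 572 to 934 in MR and 541 to 998.5 in MRV, which overlapped between all groups.

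**Figure D2:**
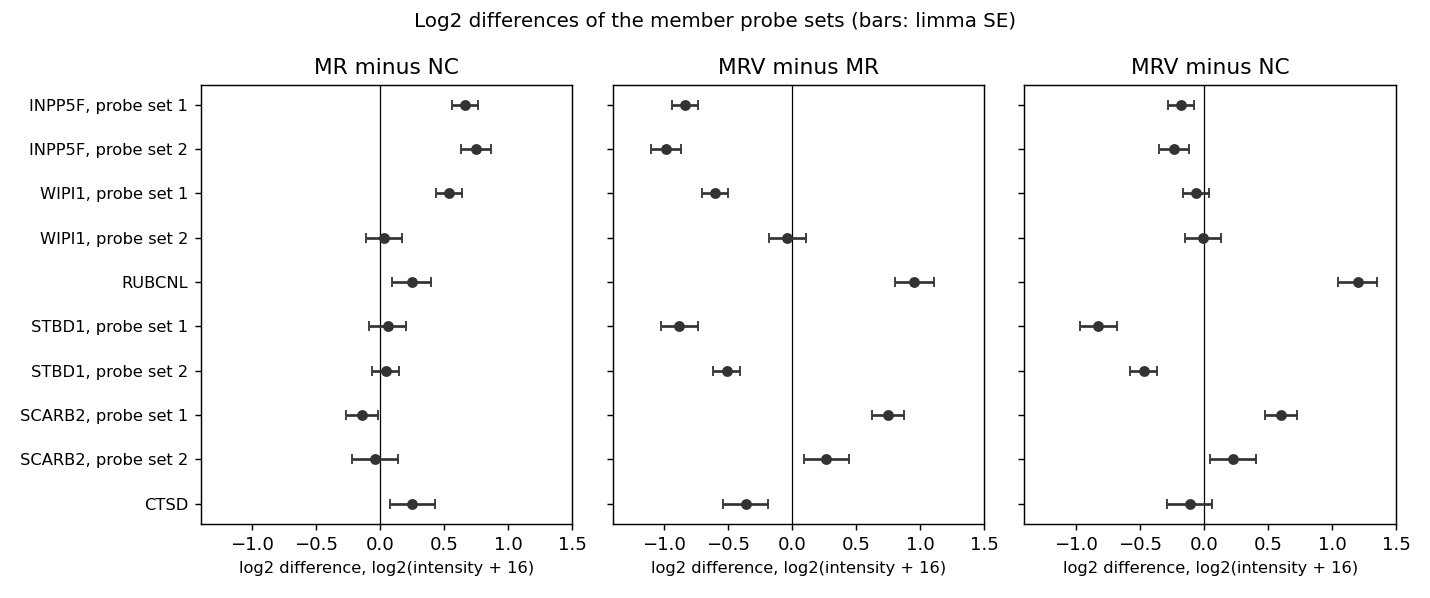
Log2 difference of log2(intensity + 16) on the horizontal axis for the 10 probe sets (rows) in the 3 comparisons, with limma standard errors as bars. The paired probe sets of INPP5F and STBD1 lie on the same side of 0 in each panel, while the second WIPI1 probe set lies near 0 throughout.

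In MR minus NC, 4 of the 10 probe sets had no overlap between the groups and were higher in MR, where 14.3% of all tested probe sets were higher without overlap, and 0 were lower, where 12.5% were. In MRV minus MR, 2 were higher and 6 lower without overlap, against 18.8% higher and 23.6% lower over all tested probe sets. In MRV minus NC, 2 were higher and 5 lower, against 15.0% and 18.1%. By the adjusted p threshold 0 of the 10 were called, against 0.00694% of all tested probe sets in MR minus NC, 0.00% in MRV minus MR and 0.00% in MRV minus NC. Since the genes were chosen on these arrays, nothing is read from these counts. The MR arrays enter both MR minus NC and MRV minus MR, so opposite signs in them are not independent.

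The full order of MR above NC above MRV, without overlap, was found for 3 of the 10 probe sets (both of INPP5F and 1 of WIPI1) and for 2.25% of all tested probe sets. MRV above the other 4 arrays was found for 2 of the 10 and for 7.67% of all, and MRV below the other 4 for 5 of the 10 and for 10.8% of all. Among the brightest probe sets of the 6 genes, WIPI1 and INPP5F correlated at r = 0.970, SCARB2 and RUBCNL at 0.897, and SCARB2 and STBD1 at -0.955. These correlations describe 6 arrays in 3 groups, on which the genes were chosen.

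The 3 genes whose log2 values ran most like each of the 6 were sought among 5407 other genes over the same 6 arrays. INPP5F was followed most closely by SNAPC5 (r = 0.992), CCDC167 (r = 0.988) and TMEM40 (r = 0.986). WIPI1 was followed by INHBA (r = 0.994), CCDC167 (r = 0.991) and IFT27 (r = 0.989). CCDC167 stood in both sets, with 206 and 199.8 in the NC arrays, 262 and 266 in the MR arrays, and 189.8 and 192 in the MRV arrays.

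STBD1 ran most like BSG (r = 0.997), which encodes basigin, and the glutaredoxin genes GLRX (r = 0.995) and GLRX5 (r = 0.987). GLRX read 269.8 and 232 in NC pigs, 248 and 253 in MR pigs, and 128 and 160.4 in MRV pigs. SCARB2 ran most like PUM2 (r = 0.988), PARP8 (r = 0.985) and PSIP1 (r = 0.984), RUBCNL most like HINFP, PERP and NAP1L1 (r = 0.974, 0.973 and 0.964), and CTSD most like RFWD2, BCAP31 and STN1 (r = 0.979, 0.978 and 0.978). With 6 arrays and this many genes, correlations of this size occur for many pairs, and no test was made.

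The wider pathways were described with 12 lists of 240 genes that leave out the 6, of which 140 had a tested probe set. Each gene was represented by its brightest tested probe set. Of the 140, 0 passed the limma threshold in any comparison, where 0.0185% of all 5408 genes with a tested probe set did in MR minus NC, 0.00% in MRV minus MR and 0.00% in MRV minus NC. The smallest limma adjusted p of the 140 was 0.999955, 0.510 and 0.720 in that order. In MRV minus MR, 12 were higher and 42 lower without overlap, against 15.0% higher and 28.7% lower among all 5408 genes. The median log2 difference of the 140 was -0.06, against -0.03 for all genes, and their median absolute difference was 0.09, against 0.12. In MR minus NC, 26 were higher and 21 lower without overlap, against 15.7% and 12.4% of all genes. Any gene of these lists named below had a limma adjusted p of 0.999955 in MR minus NC and of 0.510 or more in MRV minus MR.

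**Figure D3:**
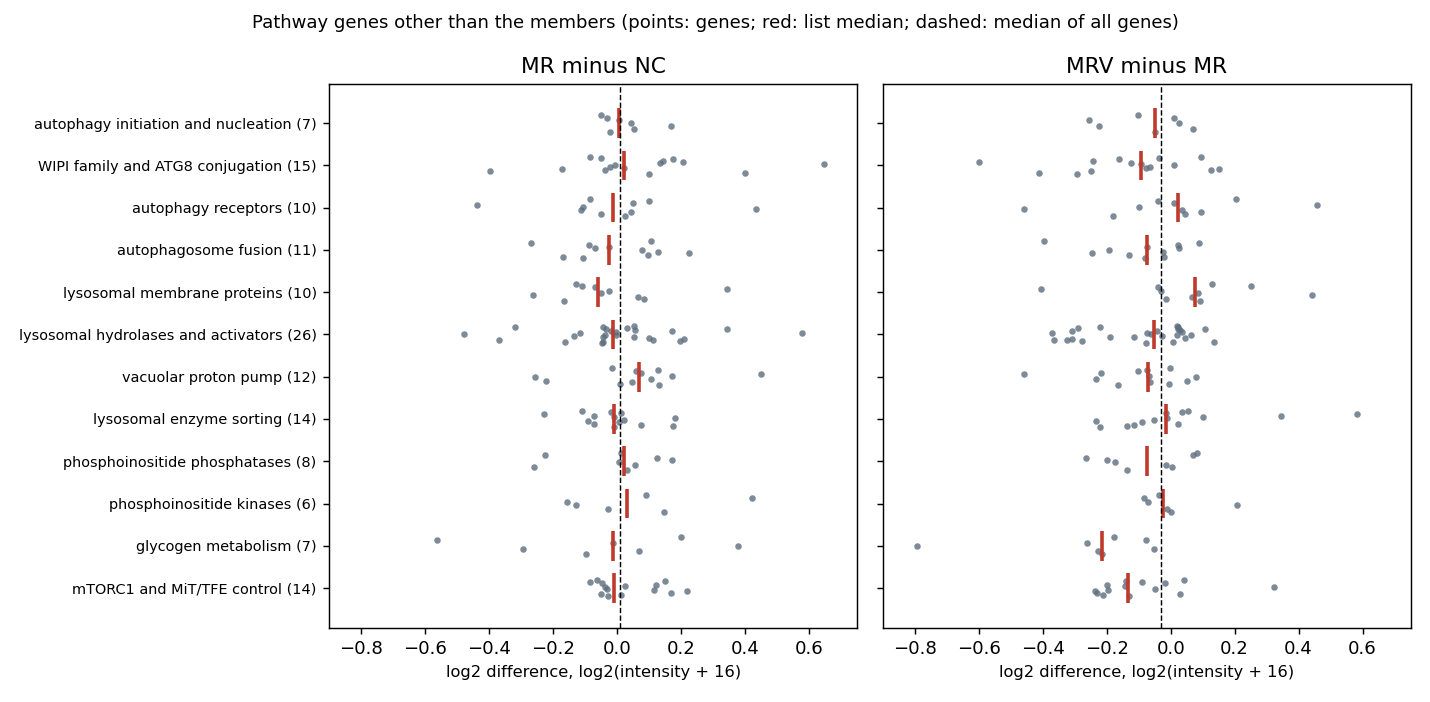
Log2 difference of log2(intensity + 16) (horizontal axes) for genes of the 12 pathway lists, with the number of tested genes in brackets, in MR minus NC (left) and MRV minus MR (right). Points are genes, red bars list medians and the dashed line the median of all genes; glycogen metabolism has the lowest median in MRV minus MR, at -0.21.

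In the list of autophagy initiation and nucleation, 7 of 18 genes were tested, with a median of 0.005 in MR minus NC and -0.05 in MRV minus MR. BECN1, the beclin subunit of the class III kinase complex that RUBCNL joins, read 969.5 and 894 in the NC arrays, 1029.7 and 1067 in the MR arrays, and 884 and 905 in the MRV arrays. Its other probe set agreed in sign in MRV minus MR (-0.21, against -0.23) but not in MR minus NC (-0.04, against 0.17). PIK3C3, the catalytic subunit of that complex, read 354 and 225 in NC pigs, 314 and 257 in MR pigs, and 245 and 226 in MRV pigs, where MRV was below MR without overlap and the wide NC values overlapped both.

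The list of the WIPI family and of the conjugation of ATG8 proteins to membranes had 15 of 18 genes tested. In MRV minus MR 1 was higher and 7 were lower without overlap (15.0% and 28.7% of all genes), with a median of -0.09. Among the WIPI1 relatives, WIPI2 read 469 ± 30.4 in NC, 441 ± 21.3 in MR and 472 ± 7.64 in MRV (SD, n = 2), and WDR45B 277 ± 24.7, 267 ± 9.62 and 259.8 ± 16.4. The other WDR45B probe set lay on the other side of 0 in MR minus NC, at 0.25 against -0.05, and differed by -0.03 in MRV minus MR. WDR45 was highest in MR, with 905 ± 17.7, 1024 ± 0.849 and 914 ± 34.8.

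ATG3, the enzyme that joins ATG8 proteins to lipid, read 1086 and 883 in the NC arrays, 1249 and 1349 in the MR arrays, and 979.9 and 961 in the MRV arrays. Its log2 differences were 0.40 (SE 0.13) in MR minus NC and -0.41 (SE 0.13) in MRV minus MR, against 0.18 and -0.10 for its other probe set. The ATG8 gene MAP1LC3A read 1659.5 and 1508 in NC pigs, 2013 and 1655 in MR pigs, and 1130.2 and 1271 in MRV pigs, so that MRV was below the other 4 arrays (log2 difference -0.60 in MRV minus MR, SE 0.14, limma adjusted p = 0.510). GABARAPL1, the ATG8 protein that STBD1 binds, read 315 in NC1 and 657 to 971 on the other 5 arrays.

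Of the autophagy receptors, which select cargo, 10 of 13 were tested, with a median of -0.01 in MR minus NC and 0.02 in MRV minus MR. SQSTM1, the p62 receptor, read 2125 ± 112 in NC, 2197 ± 64.2 in MR and 2215 ± 91.4 in MRV (SD, n = 2). OPTN, optineurin, read 2238 and 1751 in the NC arrays, 2918 and 2462 in the MR arrays, and 1785 and 2122 in the MRV arrays. TOLLIP read 354 and 403, 351 and 359, and 413 and 410.2 in the same order.

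Among 11 of 15 tested genes of autophagosome fusion with the lysosome, 1 was higher and 5 were lower without overlap in MRV minus MR. Of all genes, 15.0% were higher and 28.7% lower, and the median of the 11 was -0.07. YKT6, a SNARE protein of this fusion, read 302 and 349.7 in NC pigs, 376 and 327 in MR pigs, and 261 and 264 in MRV pigs. VPS16 and VPS41, subunits of the HOPS tethering complex, read 498 ± 10.8 and 381 ± 13.9 in MR against 435 ± 23.6 and 406 ± 5.09 in MRV (SD, n = 2). In MRV minus NC, 0 of the 11 were higher and 6 lower without overlap, against 13.3% and 21.8% of all genes.

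Of the lysosomal membrane proteins other than SCARB2, 10 of 18 were tested, with medians of -0.06 in MR minus NC and 0.08 in MRV minus MR. LAMP2, a major glycoprotein of that membrane whose loss causes a cardiomyopathy, read 1877 and 1781 in the NC arrays, 1444 and 1604 in the MR arrays, and 1951 and 2206 in the MRV arrays. MR was below and MRV above NC without overlap, with log2 differences of -0.26 (SE 0.12) in MR minus NC and 0.44 (SE 0.12, limma adjusted p = 0.569) in MRV minus MR. Its 2 other tested probe sets had the same signs, at -0.61 and -0.20 in MR minus NC and 0.65 and 0.22 in MRV minus MR. In MRV minus NC they differed by only 0.04 and 0.02, against 0.18 for the brightest probe set.

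LAMP1 read 1541 ± 139 in NC, 1611 ± 17.2 in MR and 1689 ± 108 in MRV (SD, n = 2). NPC1, which exports cholesterol from the lysosome, took the opposite course to LAMP2, with 249 and 245 in NC pigs, 297 and 340.0 in MR pigs, and 227 and 245 in MRV pigs. Its log2 differences were 0.34 (SE 0.11) in MR minus NC and -0.41 (SE 0.11, limma adjusted p = 0.583) in MRV minus MR. The lysosomal membrane genes thus did not share 1 direction with SCARB2.

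**Figure D4:**
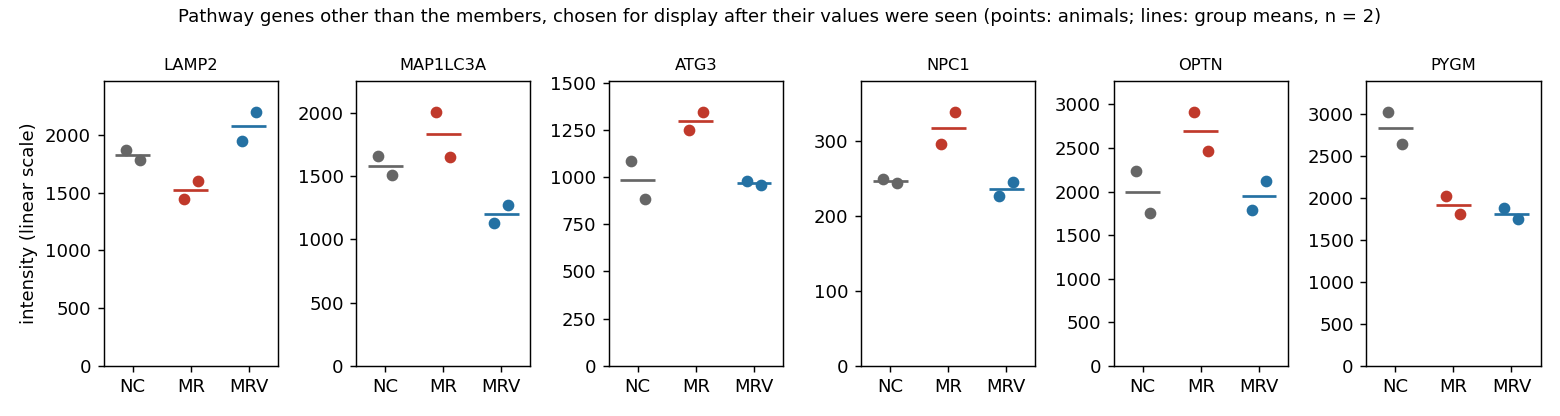
Intensity on a linear scale (vertical axes from 0) of 6 pathway genes in NC, MR and MRV, picked after their values were seen. Points are arrays of single animals and lines the means of 2; LAMP2 is lowest in MR, NPC1, ATG3 and OPTN are highest there, MAP1LC3A is lowest in MRV and PYGM is highest in NC.

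Lysosomal hydrolases and their activators, the class of CTSD, had 26 of 38 genes tested, with a median of -0.05 in MRV minus MR. In that comparison 0 were higher and 6 lower without overlap, against 15.0% and 28.7% of all genes. CTSB, the cysteine protease cathepsin B, read 3638 and 3251 in the NC arrays, 4253 and 3649 in the MR arrays, and 3107 and 3391 in the MRV arrays. PSAP, the precursor of the saposins that activate lipid hydrolases, read 2064 ± 73.5 in NC, 2106 ± 44.1 in MR and 1724 ± 132 in MRV (SD, n = 2). GLB1, lysosomal beta-galactosidase, read 897 and 1067 in NC pigs, 602 and 808 in MR pigs, and 617 and 721 in MRV pigs. The listed cathepsin L gene was matched through a synonym to a probe set annotated as CTSV, which read 462 ± 72.3 in NC, 477 ± 4.74 in MR and 439.9 ± 17.3 in MRV. RefSeq lists a separate CTSL gene in the pig, so the match is uncertain.

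The vacuolar proton pump, which acidifies the lysosome, had 12 of 16 genes tested. Their medians were 0.07 in MR minus NC and -0.07 in MRV minus MR. In the latter 0 were higher and 5 lower without overlap, against 15.0% and 28.7% of all genes. ATP6V1D read 329 and 249.9 in the NC arrays, 433 and 366 in the MR arrays, and 289 and 282 in the MRV arrays, and ATP6V1E1 read 1059 ± 16.3 in MR and 908 ± 20.9 in MRV (SD, n = 2). Of the genes that sort enzymes to the lysosome, 14 of 17 were tested, with a median of -0.01 in both MR minus NC and MRV minus MR. M6PR, a mannose 6-phosphate receptor, read 236 and 517 in the MR arrays, a spread wider than any difference between groups. The clathrin adaptor genes AP1M1 and AP1S1 read 212 ± 12.0 and 111 ± 1.56 in MR pigs against 179 ± 1.91 and 99.5 ± 0.212 in MRV pigs.

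INPP5F was set beside 8 tested phosphoinositide phosphatases of 29 listed and 6 kinases of 19 listed. The phosphatases had medians of 0.02 in MR minus NC and -0.08 in MRV minus MR. In the latter 1 was higher and 3 were lower without overlap, against 15.0% and 28.7% of all genes. FIG4, which like INPP5F has a SAC phosphatase domain, read 271 ± 45.3 in NC, 276 ± 17.6 in MR and 249 ± 9.48 in MRV (SD, n = 2). Its log2 differences were 0.03 in MR minus NC and -0.14 in MRV minus MR, both with an SE of 0.14. INPP5A, which acts on soluble inositol phosphates, read 1337 and 1132 in NC pigs, 992 and 1056 in MR pigs, and 1044 and 1011 in MRV pigs.

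The myotubularin genes MTMR2 and MTMR6, which remove the 3-phosphate that WIPI1 binds, read 512 ± 27.9 and 531 ± 26.7 in MR pigs against 452 ± 14.9 and 439 ± 8.27 in MRV pigs (SD, n = 2). The other MTMR6 probe sets differed by -0.04 and -0.06 in MRV minus MR. The kinases had medians of 0.03 and -0.02 in the same comparisons. PIP4K2C, a lipid kinase, read 147 and 171 in the NC arrays, 236 and 200.5 in the MR arrays, and 213 and 196 in the MRV arrays, and PIKFYVE, which makes the lipid that FIG4 breaks down, read 122 ± 11.5, 110.0 ± 7.07 and 129.8 ± 16.8.

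Genes of glycogen metabolism, the substrate that STBD1 binds, had 7 of 15 tested. By their brightest probe sets 0 were higher and 7 lower in MRV than in MR, where 57.6% of all genes were lower. The other probe sets of UGP2 (0.15) and PYGM (-0.02, 0.20 and 0.03) did not all share this direction. Without overlap 1 of the 7 was lower, against 28.7% of all genes. The median was -0.21 in MRV minus MR and -0.01 in MR minus NC. Adjusted for the actin ratio, the first was -0.005. PPP1R3B, a subunit that directs a phosphatase to glycogen, read 132 and 96.3 in NC pigs, 155 and 149 in MR pigs, and 60.1 and 107 in MRV pigs. GYS1, muscle glycogen synthase, read 318 and 305, 370.1 and 289, and 256 and 300.5.

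PYGM, muscle glycogen phosphorylase, read 3035 and 2651 in the NC arrays, 2024 and 1811 in the MR arrays, and 1877 and 1753 in the MRV arrays. By this probe set the difference lay between NC and both lesioned groups, unlike that of STBD1. It was -0.56 (SE 0.12) in MR minus NC and -0.08 (SE 0.12) in MRV minus MR. The 3 other PYGM probe sets differed by -0.25, -0.30 and -0.54 in MR minus NC. In MRV minus MR they differed by -0.02, 0.20 and 0.03, and in MRV minus NC by -0.27, -0.10 and -0.51.

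The list of mTORC1 and of the transcription factors that drive lysosomal genes had 14 of 24 genes tested. The median was -0.13 in MRV minus MR, with 2 higher and 7 lower without overlap, against 15.0% and 28.7% of all genes. TFEB, which activates many genes of autophagy and the lysosome, read 146 and 150.2 in NC pigs, 162 and 169.8 in MR pigs, and 161 and 138 in MRV pigs. LAMTOR2 and LAMTOR4, subunits of the complex that holds mTORC1 at the lysosome, read 344 ± 9.83 and 667 ± 40.6 in MR against 296 ± 24.5 and 567 ± 58.3 in MRV (SD, n = 2). The actin ratio was higher in MRV than in MR beside each of these list medians, and its part in them was not tested beyond the covariate fit.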

How the data were processed

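Left atrial RNA of 6 pigs was measured on 6 arrays. The deposited values are 1 linear intensity per probe set and array, as read from the values, and the labels do not say how the authors scaled the arrays to each other. MAS5 and RMA both stand in the submitters' processing notes, with the method behind these values not given in the sources used here. Precision is limited by the number of arrays.

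Control probe sets (124) were dropped. Of 23999 others, 10069 had 1 symbol, 198 several and 13732 none in the platform annotation, and 9961 of the first were found by Entrez ID in the RefSeq table of Sscrofa11.1, with 0 symbols changed. Probe sets with a mean intensity under the 40th percentile (61.4) were not tested. Differences of log2(intensity + 16) were fitted with limma 3.58.1 (lmFit, eBayes) in R 4.3.3 on group means of all 6 arrays, with 3 residual and 2.78 prior degrees of freedom, and Benjamini-Hochberg adjustment ran over 14400 probe sets with a threshold of 0.05. The fit was run on simulated arrays with independent noise and known changes in MR, which does not gauge its power for the differences given here. The design text counts 6 pigs, so the spread within a group joins animals and arrays.

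The 6 genes and the lists were chosen with earlier results of these data known. Named list genes are those with the 2 largest moderated statistics per list in MRV minus MR and the largest in MR minus NC, and a set of pathway partners. Alternatives were the pseudocount, the filter, the normalization, the eBayes options, the arrays in the fit, a replicate block, an actin covariate and the mean of a gene's probe sets.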

Additional observations from a re-analysis of the deposited data

How the results depend on the processing

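Of the 18 log2 differences of the 6 genes (their brightest probe sets in 3 comparisons), 16 kept their sign under every alternative tried, and a member probe set passed the limma threshold in 0 of the settings. The exceptions were differences near 0: STBD1 in MR minus NC, which was -0.03 with the actin covariate and -0.0005 without NC2, and CTSD in MRV minus NC, which was -0.11 in the main setting, 0.05 without NC2 and 0.06 without MRV1. Of the 36 list medians, 10 kept their sign throughout. The glycogen median in MRV minus NC was -0.31, and -0.05 with the actin covariate and -0.07 without MRV1. The number of probe sets called in MR minus NC was 1 (ASNS) in the main setting and 0 with a pseudocount of 1, no filter, quantile normalization, arrays centred on their median, only the arrays of both groups compared, the actin covariate and the replicate block, and it ranged from 0 to 0 when 1 array was left out. In MRV minus MR the replicate block called 2 probe sets, where the main setting called 0. Replicate numbers appear in every group, and the deviations of equally numbered arrays correlated at 0.340 (NC and MR), 0.202 (NC and MRV) and 0.019 (MR and MRV). The 28S signal was also higher in replicate 2 than in replicate 1 of every group. Whether equally numbered animals were paired or their arrays processed together was not tested. The block calls in MRV minus NC were 0. The cause of these changes was not tested.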

Other observations

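Both further probe sets that name SCARB2 also name AASDH, and neither was used above. The first read 2791 and 2726 in the NC arrays, 1972 and 2539 in the MR arrays, and 3106 and 2534 in the MRV arrays. Its MRV values overlapped both NC and MR, and MR was below NC without overlap. The second read 130 to 176 on the 6 arrays, with all groups overlapping.

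SCARB2 and STBD1 are close neighbours in the RefSeq gene order of the pig, separated by FAM47E, and lay on opposite sides in MRV: SCARB2 was higher and STBD1 lower than in MR. NUP54, on the far side of SCARB2, read 172 and 155 in NC pigs, 154.5 and 170.5 in MR pigs, and 166 and 175 in MRV pigs, and SHROOM3, beyond STBD1, read 73.0 to 92.7 on the 6 arrays. INPP5F lies beside BAG3, a co-chaperone of selective autophagy in muscle, which read 2302 and 2688 in the NC arrays, 2755 and 2694 in the MR arrays, and 2124 and 2393 in the MRV arrays (log2 difference -0.27 in MRV minus MR, limma adjusted p = 0.715). Both of its MR arrays were above the other 4, by a narrow margin over NC2. PRKAR1A, which lies beside WIPI1, read 3918.5 and 3580.5 in NC pigs, 4118 and 4122 in MR pigs, and 4137 and 3838 in MRV pigs.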
